A study of Mus musculus with 24 samples.

Results

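The genes described here are 32 members of the p53 pathway, 32 of the 27179 genes counted: Trp53 itself, its inhibitors Mdm2 and Mdm4, and 29 genes reported as p53 targets in arrest, apoptosis, DNA repair and metabolism. They were taken by symbol, and the set was drawn up with earlier results of these data known. They were measured by RNA sequencing of sorted mouse bone marrow cells, as 24 libraries from 4 Phf6-deleted and 4 control mice. Each of 4 litters gave 1 mouse of each kind, and each mouse gave 1 library of haematopoietic stem cells (HSC), 1 of multipotent progenitors (MPP) and 1 of the progenitors named HPC-1. Every group therefore holds 4 libraries. The strain label, Phf6lox/Y;Tie2-creTg/+, is the same for both kinds of mouse, and a separate label gives Phf6 as deleted or intact. The labels do not say whether the controls carried Cre, and they give no age. Tie2-cre is a driver of endothelial and haematopoietic cells. Cells carrying CD3, B220, GR1 or TER119 were depleted before the populations were sorted by cKIT, SCA1, CD48 and CD150. SMART-Seq v4 with Nextera XT was used for HSC and MPP and TruSeq Stranded for HPC-1, so HPC-1 levels are not compared with those of HSC or MPP.

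The transcription factor p53 is held low by MDM2, which marks it for degradation, and is released when DNA is damaged or the cell is otherwise stressed. It then binds a pair of short half-sites near its targets and raises genes that stop the cell cycle, repair DNA, alter metabolism or start apoptosis, Mdm2 among them, which closes a feedback loop. Since p53 is controlled largely at the protein level, the RNA of its targets is the usual readout of its activity. In marrow, p53 is known for restraining stem cells and for removing them after irradiation.

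Promoter sequence was taken from RefSeq for GRCm38.p6, for which 24 of the 32 genes had a window. Shown are the 250 bases before the start of Trp53 (the factor itself), of its arrest target Cdkn1a, of Sesn1, a target described below in HSC and MPP, and of Btg2 and Plk2, which differed by litter in HPC-1. Capitals mark matches to the consensus of the p53 half-site in Trp53, Cdkn1a and Sesn1, and to TGACGTCA, the palindromic cyclic AMP response element, in Btg2 and Plk2. The windows lie at chr11:69580109-69580358 on the plus strand (Trp53), chr17:29090729-29090978 on the plus strand (Cdkn1a), chr10:41887189-41887438 on the plus strand (Sesn1), chr1:134079156-134079405 on the minus strand (Btg2) and chr13:110394794-110395043 on the plus strand (Plk2). Cdkn1a and Sesn1 each have 2 windows, and the one that holds a half-site match is shown.
Trp53: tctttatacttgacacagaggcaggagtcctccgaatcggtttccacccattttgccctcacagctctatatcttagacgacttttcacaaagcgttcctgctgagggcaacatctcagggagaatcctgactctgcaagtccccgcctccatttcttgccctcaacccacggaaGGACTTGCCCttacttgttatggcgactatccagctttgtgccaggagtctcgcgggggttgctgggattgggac
Cdkn1a: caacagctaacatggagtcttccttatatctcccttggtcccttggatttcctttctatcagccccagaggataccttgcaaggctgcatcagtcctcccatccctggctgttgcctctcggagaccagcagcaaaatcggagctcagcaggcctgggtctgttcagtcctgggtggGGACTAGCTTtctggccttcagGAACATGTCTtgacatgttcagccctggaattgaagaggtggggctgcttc
Sesn1: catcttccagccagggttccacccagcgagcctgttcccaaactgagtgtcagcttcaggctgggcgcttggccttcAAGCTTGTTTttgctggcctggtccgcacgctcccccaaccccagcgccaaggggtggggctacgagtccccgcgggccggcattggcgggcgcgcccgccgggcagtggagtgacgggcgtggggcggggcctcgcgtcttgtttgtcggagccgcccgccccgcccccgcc
Btg2: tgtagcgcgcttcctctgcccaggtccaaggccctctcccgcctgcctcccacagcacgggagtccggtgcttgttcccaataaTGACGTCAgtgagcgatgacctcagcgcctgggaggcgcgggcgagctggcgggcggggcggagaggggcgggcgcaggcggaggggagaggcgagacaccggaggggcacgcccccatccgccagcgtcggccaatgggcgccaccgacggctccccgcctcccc
Plk2: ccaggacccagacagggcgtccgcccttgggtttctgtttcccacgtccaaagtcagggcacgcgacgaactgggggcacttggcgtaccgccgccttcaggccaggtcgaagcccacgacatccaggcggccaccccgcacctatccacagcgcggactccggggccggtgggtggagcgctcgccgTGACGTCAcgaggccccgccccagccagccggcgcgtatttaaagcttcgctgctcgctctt
Both strands were searched in windows that also hold the first 50 transcribed bases. The 24 genes had 32 windows, so shares of windows are the like measure. The half-site consensus was found for 9 of the 24 genes (Aen, Bax, Ccng1, Cdkn1a, Ei24, Mdm2, Polk, Sesn1 and Trp53). That was 10 of their 32 windows, beside 8.36% of all 32851 windows. Windows of 1 gene can overlap: 2 windows of Aen share the same half-site match, which is counted in each. TGACGTCA was found for Btg2 and Plk2, in 2 of the 32 windows and in 1.79% of all windows. The CArG box, the element of serum response factor, was found for Tigar, in 1 of the 32 windows and in 1.63% of all windows. A looser pair of CNNG cores at the spacing of adjoining half-sites, which can overlap the half-site matches, was found for 23 of the 24 genes. That was 29 of the 32 windows, beside 70.2% of all windows. The searches for TGACGTCA and the CArG box were added after the expression values were seen. A match describes the letters and does not show a bound site.

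Phf6 was lower in every deleted library. In CPM, counts scaled to a common library size after TMM, it averaged 55.9 ± 17.7 in deleted and 215.1 ± 24.1 in control HSC, 56.0 ± 9.10 in deleted and 196.8 ± 27.5 in control MPP, and 27.5 ± 5.93 in deleted and 116.2 ± 18.6 in control HPC-1 (SD, n = 4 each). Libraries held 9658167 to 27786830 counts. Among MPP, deleted mouse 3 was unlike the rest in make-up, with 9.339% of its counts in 10 genes, and some values are also given without it. Slamf1, the gene for CD150, ranged over 8.97 to 86.6 CPM in HSC libraries, 0 to 3.51 CPM in MPP libraries and 0 to 1.45 CPM in HPC-1 libraries. A panel of 8 T and NK cell genes summed to 105.9 to 250.9 CPM in deleted and 164.8 to 204.1 CPM in control HSC, and 114.8 to 191.4 CPM in deleted and 183.4 to 282.6 CPM in control MPP, with Cd3e and Cd8a at 0 in all of these libraries. A panel of 16 neutrophil and monocyte genes summed to 1465 to 11260 CPM in deleted and 807.7 to 7788 CPM in control HSC, 1496 to 14420 CPM in deleted and 665.5 to 3096 CPM in control MPP, and 831.7 to 3560 CPM in deleted and 1088 to 1862 CPM in control HPC-1, with none of the 16 at 0 throughout a group. Of 8 marker panels, 1 did not overlap between genotypes in HSC and 0 in MPP and HPC-1: the 8 erythroid genes summed to 1068 to 1787 CPM in deleted and 1975 to 2259 CPM in control HSC. The 8 B cell genes summed to 2234, 2058, 501.0 and 1373 CPM in deleted HPC-1, against 1101, 1132, 530.1 and 701.2 CPM in control HPC-1, and these groups overlapped. The part of these panels in the results below was not tested. In bulk RNA, fewer cells of a type and less RNA per cell cannot be told apart.

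No member passed the threshold after Phf6 deletion in any population. By edgeR's quasi-likelihood test with Benjamini-Hochberg adjustment, the members past an adjusted p of 0.05 were 0 of 31 tested in HSC (0.0073% of all genes tested), 0 of 32 in MPP (0.029% of all genes) and 0 of 32 in HPC-1 (0.0647% of all genes). DESeq2 also called 0 members in each, where its calls over all genes were 0.102% (HSC), 0.688% (MPP) and 0.489% (HPC-1) of those tested. Pmaip1, which encodes the BH3-only protein NOXA, was too low to be tested in HSC. At an unadjusted p under 0.05 there were 1, 3 and 3 members in HSC, MPP and HPC-1, where the shares of all genes were 3.86, 8.09 and 4.99%. The 95% interval of the deleted over control ratio lay within 2-fold in either direction for 18 of 31 members in HSC, 16 of 32 in MPP and 18 of 32 in HPC-1. Larger differences in the other members were not resolved. Over all genes tested, the interval lay within 2-fold for 8410 of 13693 in HSC, 7947 of 13806 in MPP and 10302 of 13907 in HPC-1. More members were on the lower side than the higher in HSC (21 lower, 10 higher) and MPP (20 lower, 12 higher), while HPC-1 had 17 lower and 15 higher. The shares of all genes on the higher side were 50.8, 51.9 and 49.3% in the same order of populations. The median log2 fold change over members was -0.14 in HSC and -0.14 in MPP, beside 0.01 and 0.02 over all genes, and -0.02 in HPC-1.

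**Figure D1:**
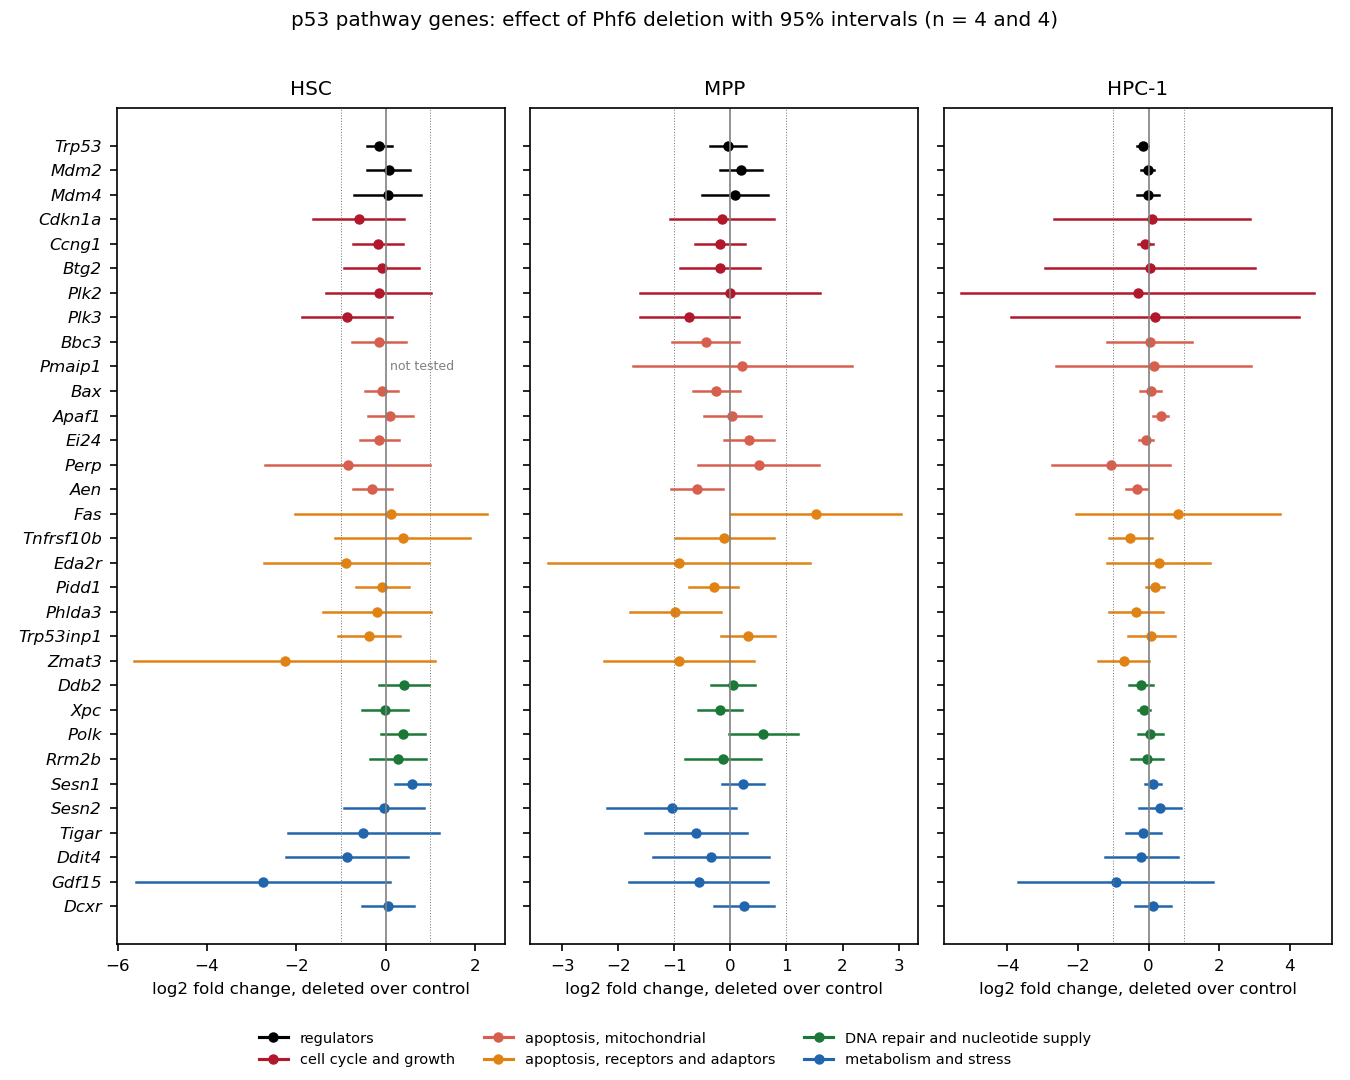
Log2 fold change of deleted over control for each p53 pathway gene in HSC, MPP and HPC-1, with points for the estimate, bars for its 95% interval, colours for the role of the gene and dotted lines at a 2-fold difference. In each population most intervals cross 0, and genes with few counts such as Gdf15 have wide ones.

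Among the regulators, Trp53 RNA was abundant and varied little. Per kilobase of exon it was the highest member in all groups, at 128.1 RPKM in deleted and 141.6 RPKM in control HSC, whereas Zmat3, an RNA-binding p53 target, stood at 0.109 RPKM in deleted and 0.539 RPKM in control HSC. Trp53 had 261.1, 233.9, 231.1 and 231.0 CPM in deleted HSC of litters 1 to 4, against 255.7, 282.7, 260.6 and 258.7 CPM in control HSC. In MPP it had 242.5, 210.8, 209.8 and 209.9 CPM in deleted mice, against 228.5, 241.2, 201.0 and 227.2 CPM in controls. The groups overlapped in both populations. In HPC-1 it had 224.0, 234.4, 241.3 and 221.5 CPM in deleted mice, against 258.2, 245.9, 271.8 and 258.4 CPM in controls. All 4 deleted HPC-1 libraries were below all 4 controls, which held for 1.98% of all genes tested. The difference there was -0.17 ± 0.08 in log2 (SE; adjusted p = 0.968 by edgeR's quasi-likelihood test with Benjamini-Hochberg adjustment), so it did not pass.

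Mdm2 had 149.2, 103.9, 74.1 and 114.9 CPM in deleted HSC, against 127.5, 78.8, 110.8 and 106.2 CPM in control HSC. In MPP it had 106.1, 117.9, 130.7 and 103.9 CPM in deleted mice, against 118.8, 96.2, 103.0 and 83.9 CPM in controls. In HPC-1 it had 109.8, 107.9, 103.3 and 115.0 CPM in deleted mice, against 101.7, 111.1, 116.0 and 113.3 CPM in controls. The groups overlapped in all 3 populations, and the 95% interval of the log2 difference was -0.43 to 0.55 for HSC. It was -0.18 to 0.56 for MPP and -0.20 to 0.16 for HPC-1. Mdm4, whose product binds p53 and blocks its transactivation, differed by 0.04, 0.09 and -0.02 in log2 in HSC, MPP and HPC-1.

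Of the cell cycle genes, Cdkn1a encodes p21, the inhibitor of cyclin-dependent kinases through which p53 halts the cycle. It had 2.68, 4.01, 6.43 and 10.96 CPM in deleted HSC, against 11.3, 8.15, 9.75 and 7.11 CPM in control HSC. In MPP it had 8.75, 3.95, 3.87 and 9.28 CPM in deleted mice, against 5.89, 4.13, 8.44 and 10.2 CPM in controls. The groups overlapped, and the log2 intervals of -1.61 to 0.41 in HSC and -1.07 to 0.78 in MPP include 2-fold reductions. In HPC-1 it had 13.0, 13.9, 10.02 and 137.5 CPM in deleted mice, against 21.3, 18.5, 19.5 and 101.7 CPM in controls. Litter 4 was far above the others in both kinds of mouse, and the log2 difference of 0.11 had an interval of -2.67 to 2.89. Without both litter 4 mice it was -0.69, on the other side of 0, with an adjusted p of 0.511 by the same edgeR test; this setting was added after the data were seen. Plk3, a kinase of the stress response, had 4.48, 3.30, 3.74 and 5.23 CPM in deleted HSC, against 4.37, 6.18, 7.04 and 13.1 CPM in control HSC. The control of litter 1 lay among the deleted values and the other 3 controls above them, and the log2 difference was -0.87 with an interval of -1.87 to 0.13.

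Among the apoptosis genes, Aen, which encodes an exonuclease of apoptotic cells, had less in the deleted mouse than in its control littermate for 3 of 4 litters of HSC and for 4 of 4 both of MPP and of HPC-1. Perp in HSC, Bbc3 in MPP, Phlda3 in MPP and HPC-1 and Zmat3 in HPC-1 were also lower in every litter. For Phlda3 in litter 1 of HPC-1 this was 3.811 CPM deleted against 3.817 CPM control. Apaf1 in HPC-1 and Ei24 in MPP were higher in every litter. The share of all genes with 1 direction in every litter is not given here, so these litter counts are description only. Aen had 49.1, 45.1, 27.2 and 43.7 CPM in deleted MPP, against 55.3, 56.4, 63.7 and 73.3 CPM in control MPP. The MPP groups did not overlap, as for 2.82% of all genes in that direction; no member had all deleted MPP above all controls, which 2.93% of all genes did. In HPC-1 it had 42.3, 38.4, 38.8 and 36.8 CPM in deleted mice, against 42.4, 41.8, 51.3 and 61.7 CPM in controls, and in HSC 57.4, 63.1, 68.2 and 38.3 CPM in deleted mice, against 67.6, 69.7, 65.7 and 76.9 CPM in controls. In HPC-1 the deleted mouse of litter 1 was above the lowest control, and in HSC the ranges also overlapped. By edgeR's quasi-likelihood test with Benjamini-Hochberg adjustment the log2 differences were -0.59 ± 0.21 in MPP (adjusted p = 0.592) and -0.34 ± 0.14 in HPC-1 (adjusted p = 0.878), and -0.44 in MPP without deleted mouse 3.

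Apaf1 encodes the core of the apoptosome, which activates caspase-9. It had 125.1, 111.5, 113.1 and 94.4 CPM in deleted HPC-1, against 91.0, 92.5, 82.4 and 83.8 CPM in control HPC-1. The groups did not overlap, as for 1.65% of all genes in that direction, and the log2 difference was 0.34 ± 0.10 (adjusted p = 0.47 by edgeR's quasi-likelihood test with Benjamini-Hochberg adjustment). In HSC and MPP its groups overlapped. The span of Apaf1 overlaps that of Ikbip, and whether the 2 genes share reads was not examined. Bax, whose product permeabilises mitochondria, differed by -0.09, -0.25 and 0.06 in log2 in HSC, MPP and HPC-1.

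Phlda3, a repressor of AKT, had 3.04, 4.51, 2.32 and 3.22 CPM in deleted MPP, against 4.05, 6.65, 7.61 and 7.52 CPM in control MPP, where the deleted mouse of litter 2 was within the control range. Fas, the death receptor, had 4.88, 5.26, 0.581 and 8.06 CPM in deleted MPP, against 1.23, 3.13, 1.10 and 1.07 CPM in control MPP. Deleted mouse 3 was below all controls and the other 3 deleted libraries above them. The log2 differences were -0.98 ± 0.37 for Phlda3 (adjusted p = 0.603) and 1.53 ± 0.69 for Fas (adjusted p = 0.616), both by edgeR's quasi-likelihood test with Benjamini-Hochberg adjustment, and -0.85 and 1.89 without deleted mouse 3. Zmat3 had 3.13, 4.83, 6.15 and 3.83 CPM in deleted HPC-1, against 6.22, 6.67, 11.8 and 4.62 CPM in control HPC-1, lower in the deleted mouse of every litter, with overlapping ranges and an adjusted p of 0.988 by the same edgeR test.

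Among the repair genes, Polk, a translesion DNA polymerase, had more in the deleted mouse than in its control littermate for 4 of 4 litters both of HSC and of MPP and for 3 of 4 of HPC-1. Ddb2 was also higher in the deleted mouse of every HSC litter, and Xpc was lower in every MPP and HPC-1 litter. As above, no share of all genes stands beside these litter counts. Polk had 33.5, 38.8, 47.5 and 48.1 CPM in deleted HSC, against 24.6, 34.2, 40.2 and 29.3 CPM in control HSC. In MPP it had 36.0, 47.9, 74.0 and 42.3 CPM in deleted mice, against 34.4, 33.1, 44.5 and 21.1 CPM in controls. Deleted mouse 3 was the highest MPP library, and the log2 difference in MPP was 0.59 ± 0.28, or 0.33 without it. The adjusted p was 0.998 in HSC and 0.617 in MPP by edgeR's quasi-likelihood test with Benjamini-Hochberg adjustment.

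Among the metabolic genes, Sesn1, a stress-induced inhibitor of mTORC1, had the lowest p of any member in HSC. It had 200.6, 198.1, 162.4 and 245.7 CPM in deleted HSC, against 133.9, 137.9, 160.2 and 101.2 CPM in control HSC. Every deleted library was above every control, as for 1.55% of all genes, and the log2 difference was 0.60 ± 0.18 (adjusted p = 0.998 by edgeR's quasi-likelihood test with Benjamini-Hochberg adjustment). In MPP it had 278.3, 266.4, 217.1 and 341.2 CPM in deleted mice, against 255.4, 225.1, 249.9 and 211.9 CPM in controls, and in HPC-1 160.8, 161.6, 178.0 and 130.8 CPM in deleted mice, against 161.8, 154.9, 138.9 and 121.3 CPM in controls. Those groups overlapped, with the deleted mouse higher in 3 of 4 litters in each. Gdf15, a secreted stress cytokine, had 0, 0.152, 0 and 1.89 CPM in deleted HSC, against 4.17, 3.09, 2.07 and 4.30 CPM in control HSC. The HSC groups did not overlap, as for 1.59% of all genes in that direction, at levels of few counts. A count of 0 in the deleted libraries allows up to 3 counts, and the adjusted p was 0.998 by the same edgeR test. Gdf15 in HSC and MPP, Sesn2 in MPP and Ddit4 in HSC were lower in the deleted mouse of every litter. These litter counts too stand without a share of all genes.

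**Figure D2:**
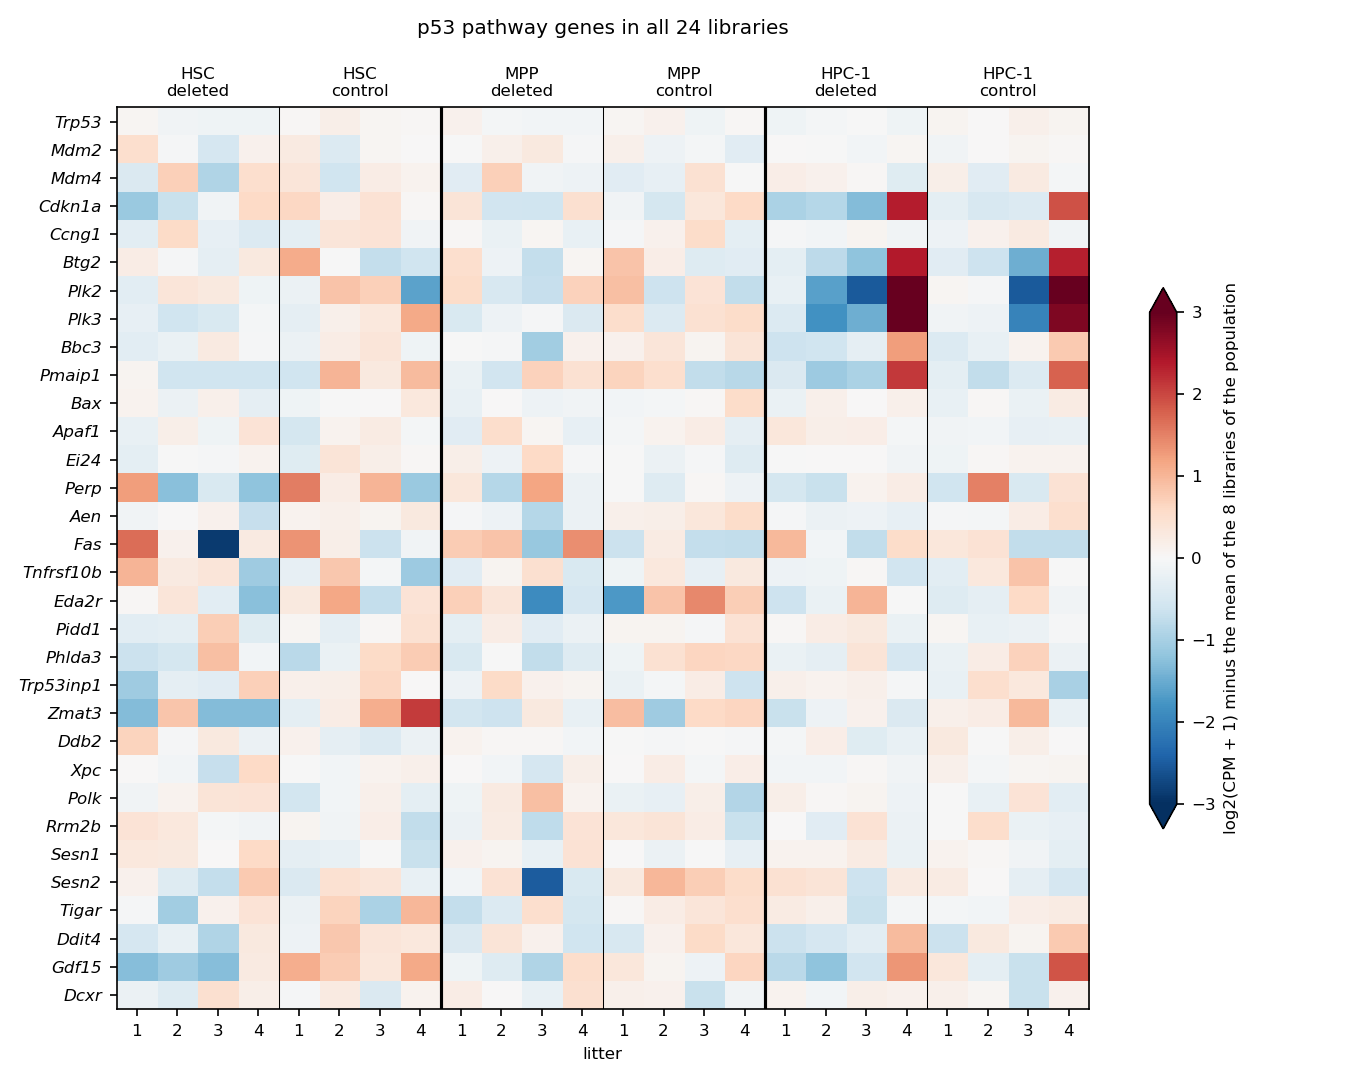
Levels of the p53 pathway genes in all 24 libraries, as log2(CPM + 1) minus the mean of the 8 libraries of the population, with deleted libraries left of control libraries, genes in rows and colours capped at the ends of the scale. Both litter 4 libraries of HPC-1 stand out in Btg2, Cdkn1a, Plk2 and Plk3.

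With the 3 libraries of a mouse averaged, limma with Benjamini-Hochberg adjustment called 0 of 31 members after deletion (0.101% of all genes tested), with 4 members at an unadjusted p under 0.05, where 8.9% of all genes were. These were Zmat3 (-1.57 ± 0.45, adjusted p = 0.353 by limma), Aen (-0.42 ± 0.13, adjusted p = 0.386 by limma), Sesn1 (0.32 ± 0.11, adjusted p = 0.443 by limma) and Gdf15 (-1.84 ± 0.68, adjusted p = 0.474 by limma). Trp53, Cdkn1a and Mdm2 averaged -0.12, -0.45 and 0.07 in log2.

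The effect of deletion was also compared between populations. By edgeR's quasi-likelihood test of the interaction with Benjamini-Hochberg adjustment, 0 members differed between MPP and HSC, between HPC-1 and HSC or between HPC-1 and MPP (0% of all genes in each), and 0 by DESeq2 (0.0137, 0.0735 and 0.047% of all genes). At an unadjusted p under 0.05 there were 0, 2 and 2 members, where 2.86, 3.46 and 4.48% of all genes were. Those were Sesn1 (-0.47 ± 0.21) and Ddb2, a sensor of ultraviolet damage (-0.64 ± 0.30), for HPC-1 minus HSC, and Sesn2 (1.36 ± 0.63) and Pidd1 (0.48 ± 0.23) for HPC-1 minus MPP, the last pair being 1.02 and 0.43 without the MPP library of deleted mouse 3. The lowest adjusted p of any member was 0.915.

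Another 52 genes of the pathway, its upstream kinases and modifiers and further reported targets, gave 0 calls of 44 tested in HSC, 0 of 45 in MPP, 0 of 45 in HPC-1 and 0 of 43 averaged over populations. The shares of all genes called were 0.0073, 0.029, 0.0647 and 0.101% in the same order. Atm, the kinase that signals double-strand breaks, was among the 2 lowest p-values each time. It had 50.7, 114.2, 102.8 and 89.0 CPM in deleted HSC, against 69.3, 62.6, 68.3 and 56.5 CPM in control HSC, with only deleted mouse 1 below the controls. Its log2 difference was 0.47 in HSC. In MPP Atm had 72.2, 103.2, 188.8 and 57.3 CPM in deleted mice, against 49.4, 57.5, 74.3 and 58.6 CPM in controls. Deleted mouse 3 was the highest by far, and the difference of 0.82 was 0.37 without it. In HPC-1 it was 0.23, and none passed.

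Within one genotype MPP were also set against HSC, which were made with the same kit. In control mice 6 of 32 members differed by edgeR's quasi-likelihood test with Benjamini-Hochberg adjustment, while 8.84% of all genes did. 4 were higher in MPP (Xpc, Sesn1, Sesn2 and Trp53inp1), where 4.06% of all genes were, and 2 were lower (Fas and Pidd1), where 4.78% were. The median over members was -0.04 in log2, beside -0.01 over all genes.

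Xpc, which recognises damage in nucleotide excision repair, had 150.4, 173.4, 143.4 and 171.9 CPM in control MPP, against 94.1, 90.2, 101.9 and 105.6 CPM in control HSC. Sesn1 had 255.4, 225.1, 249.9 and 211.9 CPM in control MPP, against 133.9, 137.9, 160.2 and 101.2 CPM in control HSC. Sesn2, its relative, had 16.6, 27.8, 23.0 and 20.1 CPM in control MPP, against 7.52, 14.8, 13.6 and 8.81 CPM in control HSC. The MPP values of these 3 genes were above all HSC values, as for 7.76% of all genes; those of Bbc3 were too, without passing. The log2 differences by edgeR's quasi-likelihood test with Benjamini-Hochberg adjustment were 0.69 ± 0.12 for Xpc (adjusted p = 0.00268), 0.81 ± 0.14 for Sesn1 (adjusted p = 0.00314) and 0.96 ± 0.26 for Sesn2 (adjusted p = 0.0388).

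Trp53inp1, which promotes autophagy and p53 phosphorylation, had 103.8, 114.9, 138.2 and 77.5 CPM in control MPP, against 64.0, 65.1, 88.4 and 57.7 CPM in control HSC, with MPP higher in every mouse and overlapping ranges. Fas had 1.23, 3.13, 1.10 and 1.07 CPM in control MPP, against 17.4, 7.29, 3.68 and 5.80 CPM in control HSC, without overlap, as for 7.79% of all genes. Pidd1, the scaffold of the PIDDosome, had 43.0, 43.3, 39.9 and 55.4 CPM in control MPP, against 67.5, 54.0, 66.7 and 89.2 CPM in control HSC, lower in MPP of every mouse with a slight overlap of the ranges. The log2 differences were 0.64 ± 0.18 for Trp53inp1 (adjusted p = 0.0447), -2.41 ± 0.55 for Fas (adjusted p = 0.0153) and -0.62 ± 0.17 for Pidd1 (adjusted p = 0.0418), by edgeR's quasi-likelihood test with Benjamini-Hochberg adjustment. The calls of Xpc and Sesn1 held under all 13 alternatives, those of Fas under 9, Sesn2 under 8, Trp53inp1 under 7 and Pidd1 under 6. Leaving out HSC control 1 or MPP control 3 left 2 members called, and leaving out MPP control 2 left 3. Among control HSC, library 1 was the highest in Fas and had a summed level of 283.6 CPM for 8 endothelial and stromal genes, above the other HSC libraries, with Cdh5 and Lepr at 0. Deleted HSC library 1 had more Fas, at 22.4 CPM, and 71.6 CPM for that panel; the part of the panel in the result was not tested. With the mouse as a block, which pairs the libraries of a mouse, 10 members were called, while the calls over all genes came to 15.5%. The 4 added were Ccng1 (0.39) and Btg2 (0.53), higher in MPP, and Plk2 (-2.21) and Bax (-0.34), lower in MPP.

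Cdkn1a and Mdm2 did not pass, at -0.36 and -0.09 in log2. Trp53 was lower in every control MPP than in any control HSC, at 0.25 less in log2, with an adjusted p of 0.208 by the same edgeR test. Of the further pathway genes 6 of 44 differed, where 8.84% of all genes did. All 6 were lower in MPP, as 4.78% of all genes were, led by Gtse1, which shuttles p53 out of the nucleus. It had 17.2, 9.02, 12.3 and 12.7 CPM in control MPP, against 40.3, 33.8, 34.2 and 48.6 CPM in control HSC, a log2 difference of -1.62 ± 0.22 (adjusted p = 0.000528 by edgeR's quasi-likelihood test with Benjamini-Hochberg adjustment). Cpt1c (-2.45 ± 0.47) and Psrc1 (-0.95 ± 0.20) followed.

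In deleted mice 0 of 32 members differed between MPP and HSC by edgeR's quasi-likelihood test with Benjamini-Hochberg adjustment (1.41% of all genes), with 5 at an unadjusted p under 0.05, where 14.4% of all genes were, and 3 called by DESeq2 (Ei24, Trp53inp1 and Plk2), which called 6.09% of all genes. Ei24, an endoplasmic reticulum protein of apoptosis and autophagy, had 103.7, 82.4, 138.2 and 88.7 CPM in deleted MPP, against 46.5, 57.3, 56.2 and 61.5 CPM in deleted HSC. Trp53inp1 had 107.1, 176.5, 130.6 and 125.9 CPM in deleted MPP, against 26.8, 47.1, 45.3 and 94.6 CPM in deleted HSC. For both genes every MPP library was above every HSC library, as for 6.03% of all genes. The log2 differences were 0.88 ± 0.23 for Ei24 (adjusted p = 0.0891) and 1.32 ± 0.35 for Trp53inp1 (adjusted p = 0.0972), by the same edgeR test with Benjamini-Hochberg adjustment. Deleted mouse 3 was the highest MPP library in Ei24, whose difference was 0.70 without it. Plk2 had 2.99, 0.940, 0.677 and 3.35 CPM in deleted MPP, against 6.08, 10.4, 9.87 and 7.05 CPM in deleted HSC, and Pidd1 had 33.0, 47.2, 32.1 and 35.7 CPM in deleted MPP, against 52.1, 52.6, 109.2 and 50.1 CPM in deleted HSC. Every MPP library was below every HSC library for Plk2, Pidd1 and Bax, as for 5.66% of all genes, and by the same edgeR test with Benjamini-Hochberg adjustment the adjusted p was 0.132 for Plk2 and 0.206 for Pidd1. The log2 difference of Pidd1 was -0.86, and -0.43 without both libraries of mouse 3. Without HSC deleted 4 the count of calls was 1, Trp53inp1. That members passed in controls and not in deleted mice does not show a differing effect, since the interaction found none.

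**Figure D3:**
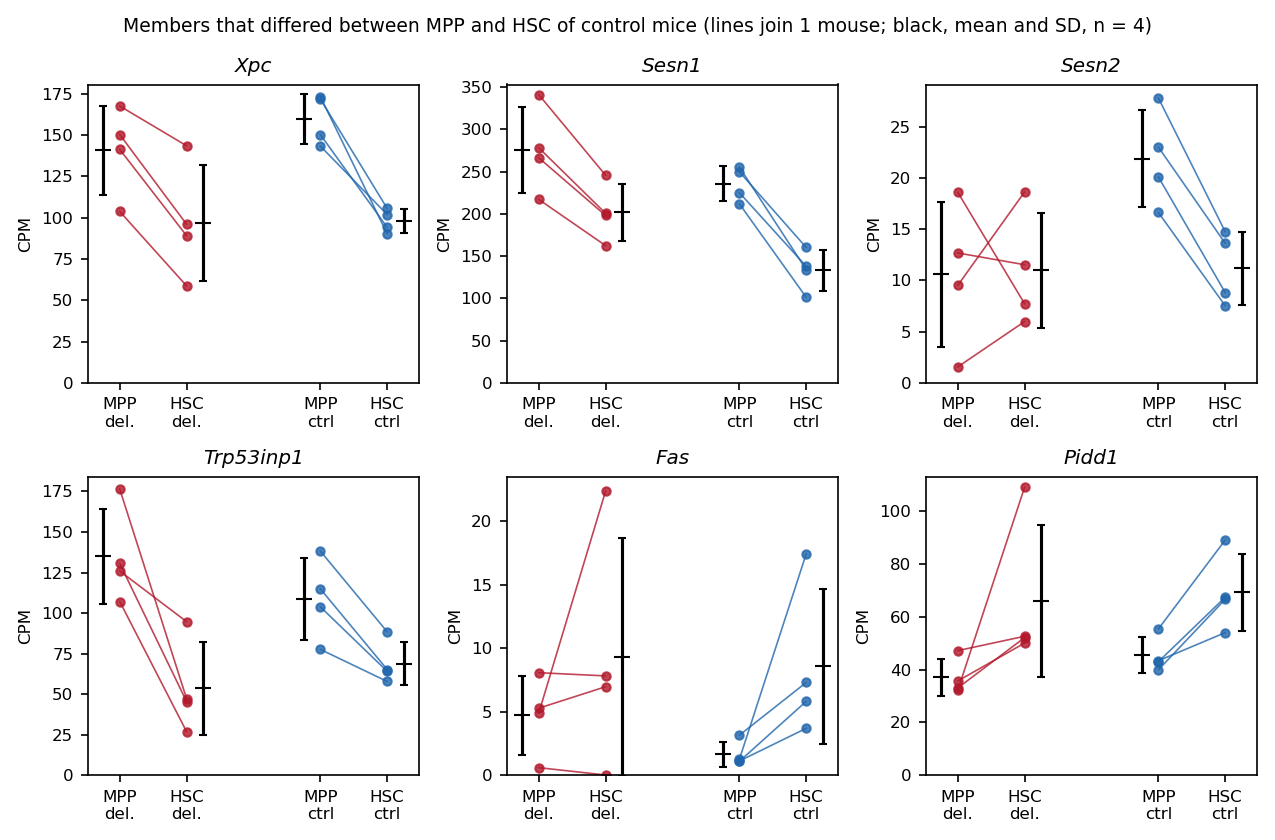
CPM of 6 p53 pathway genes that differed between MPP and HSC of control mice, with MPP left of HSC and deleted left of control, points for libraries, lines joining the libraries of a mouse and black marks for mean ± SD of 4. Control MPP lie above control HSC for Xpc, Sesn1 and Sesn2 and below them for Fas.

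In HPC-1, members differed between litters. Of 32 members, 8 did so by edgeR's quasi-likelihood F test with Benjamini-Hochberg adjustment, in a fit with genotype, while 2.88% of all genes did. They were Btg2, Cdkn1a, Pmaip1, Plk2, Bbc3, Ddit4, Plk3 and Gdf15. Of the 32 members, the same 8 had the deleted and the control library of litter 4 both above the other 6, as 10.2% of all genes did. Since the litter test on these libraries picked the 8, this pattern is not separate support for it. Btg2, an antiproliferative gene that p53 and growth signals both induce, had 68.7, 48.1, 35.8 and 442.6 CPM in deleted HPC-1, against 66.6, 54.4, 30.0 and 426.2 CPM in control HPC-1 of litters 1 to 4. The litter 4 mean was 8.59 times that of the other 6 libraries (adjusted p = 6.85e-12 by the edgeR F test), and 7.46 times for Cdkn1a (adjusted p = 3.86e-05 by the edgeR F test).

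Plk2, a polo-like kinase of the stress response, had 3.85, 0.840, 0 and 55.7 CPM in deleted HPC-1, against 4.94, 4.59, 0 and 64.5 CPM in control HPC-1. Plk3 had 4.82, 1.21, 1.84 and 67.8 CPM in deleted HPC-1, against 6.29, 5.95, 0.942 and 53.4 CPM in control HPC-1. Litter 4 was the highest in both kinds of mouse for both kinases. Pmaip1 had 3.31, 1.73, 1.98 and 24.2 CPM in deleted HPC-1, against 3.74, 2.48, 3.36 and 18.6 CPM in control HPC-1. Bbc3, which encodes the BH3-only protein PUMA, had 8.34, 8.56, 10.99 and 33.3 CPM in deleted HPC-1, against 9.85, 11.4, 14.6 and 23.95 CPM in control HPC-1. Litter 4 again held the highest values of each group. Ddit4, an inhibitor of mTORC1, had 11.1, 12.2, 14.2 and 35.2 CPM in deleted HPC-1, against 11.1, 22.0, 19.1 and 31.2 CPM in control HPC-1, and Gdf15 had 0.396, 0.0525, 0.629 and 5.07 CPM in deleted HPC-1, against 2.07, 0.999, 0.530 and 8.03 CPM in control HPC-1. The adjusted p by the edgeR F test was 3.97e-05 for Pmaip1, 0.000128 for Plk2, 0.00381 for Bbc3, 0.00888 for Ddit4, 0.0306 for Plk3 and 0.0385 for Gdf15.

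The other members did not pass for litter, among them Trp53 itself, with an adjusted p of 0.931 by the same edgeR F test. For 4 targets shown as examples of those that did not pass, the adjusted p by that test was 0.951 for Mdm2, 0.561 for Ccng1, 0.394 for Bax and 0.435 for Zmat3. Sesn1 had its lowest values in litter 4, both below the other 6 libraries, as for 8.66% of all genes. A panel of 12 immediate early genes, such as Fos and Egr1, summed to 14290 CPM in deleted and 15610 CPM in control HPC-1 of litter 4, against 702.1 to 3642 CPM in the other 6 libraries. All 12 were highest in both litter 4 libraries. Their part in the litter difference of the p53 genes was not tested. Of the 52 further pathway genes Gadd45a, a stress gene of arrest and repair, differed, where 2.88% of all genes did. It had 17.7, 7.93, 12.7 and 26.2 CPM in deleted HPC-1, against 15.2, 8.75, 13.1 and 18.7 CPM in control HPC-1 (adjusted p = 0.0308 by the edgeR F test). Without both litter 4 mice 0 members differed by litter; Btg2 then had an adjusted p of 0.0552 by the same test.

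**Figure D4:**
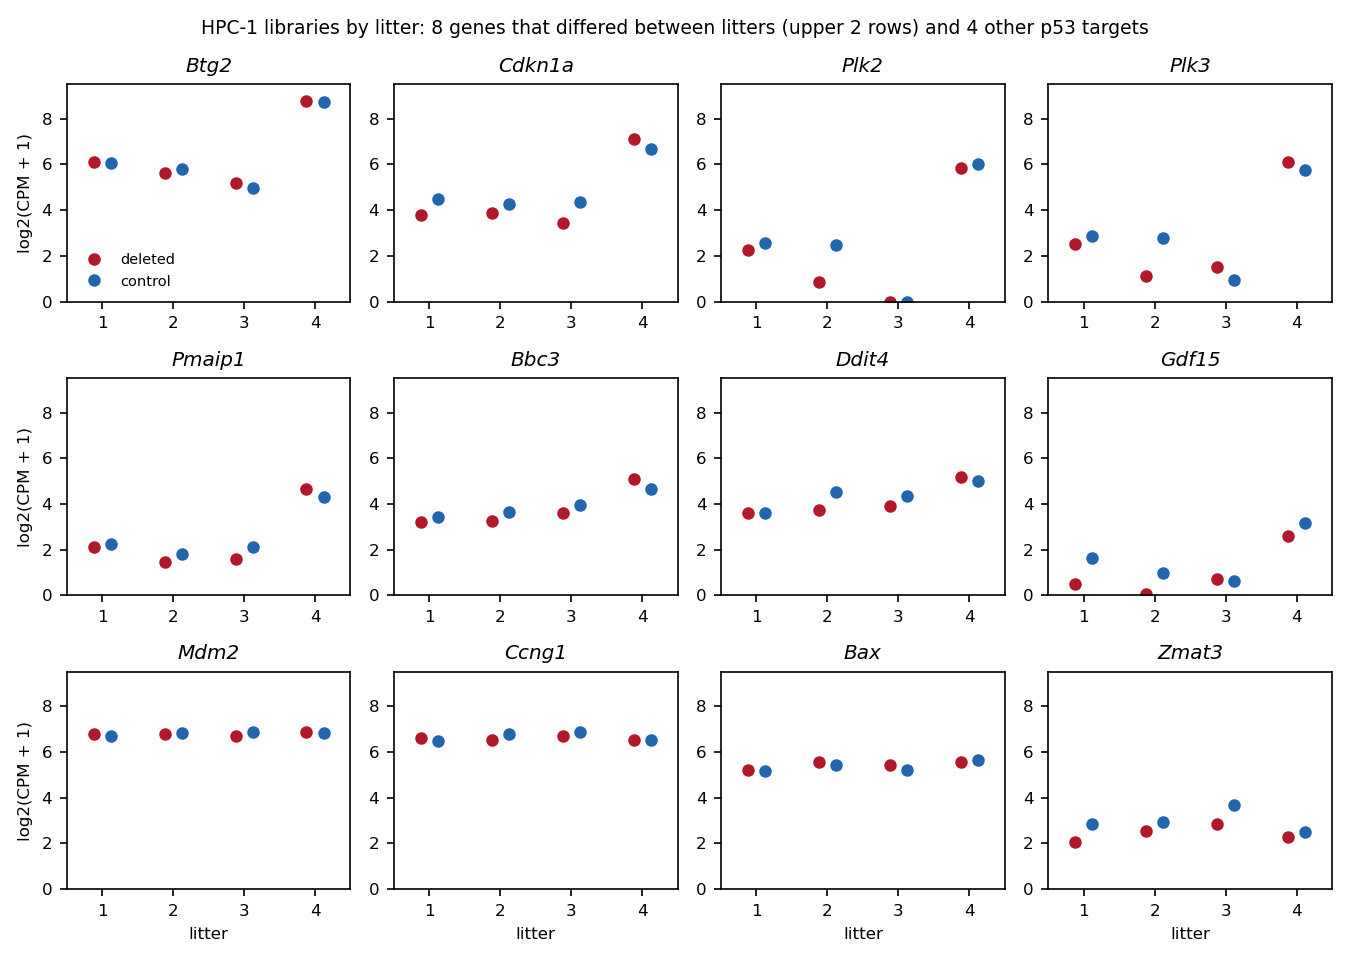
log2(CPM + 1) of 12 p53 pathway genes in HPC-1 by litter, 1 point for the deleted and 1 for the control mouse of each litter: the 8 that differed between litters and, for contrast, Mdm2, Ccng1, Bax and Zmat3. Both litter 4 points stand above the rest for the first 8 genes.

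In HSC and MPP no member passed the threshold for litter, which does not show that the litters were alike. Both litter 1 libraries of HSC lay above all other HSC libraries for Mdm2, Perp and Fas. They lay below all others for Apaf1, Ei24 and Phlda3. The share of all genes with such a pattern is not given here. The edgeR F test called 0 of 31 in HSC (0% of all genes) and 0 of 32 in MPP (0% of all genes), and DESeq2 called 0 in each (0.431% of all genes in HSC and 0.978% in MPP). At an unadjusted p under 0.05 edgeR had 1 member in each, Perp in HSC (2.76% of all genes) and Btg2 in MPP (5.92% of all genes). Btg2 had 34.00, 28.5, 24.1 and 35.6 CPM in deleted HSC, against 64.7, 29.1, 17.2 and 18.8 CPM in control HSC, and 55.7, 34.9, 23.2 and 40.6 CPM in deleted MPP, against 70.7, 44.6, 29.5 and 30.5 CPM in control MPP. The control mouse of litter 1 was the highest in both populations. The immediate early panel was also highest in that mouse, at 6329 CPM in HSC and 6175 CPM in MPP, and its part in the Btg2 values was not tested.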

How the data were processed

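Poly(A) RNA was measured in 24 libraries of 3 sorted populations from 8 mice. The authors deposited raw counts per gene; the submitters' processing notes name bcl2fastq, featureCounts and mm10. Which aligner, versions and strand setting were used is not given in the sources used here. Of the 32 members, 9 have a span that overlaps that of another annotated gene (Mdm4, Plk3, Apaf1, Ei24, Eda2r, Zmat3, Ddb2, Xpc and Rrm2b). Where exons overlap, reads cannot be told apart in the unstranded SMART-Seq libraries. Overlap of exons was not examined. A RefSeq table of GRCm38.p6 named 25275 of 27179 identifiers.

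Tests ran in R 4.3.3 on counts scaled by TMM, kept by the filterByExpr minimum of 10 (15 in total), with the robust quasi-likelihood test of edgeR 4.0.16; p-values were adjusted by Benjamini-Hochberg over every gene tested, at 0.05. For deletion, each population was fitted on its own. Values averaged over populations were tested with limma 3.58.1 on 1 mean log2 CPM (prior count 2) per mouse. HSC and MPP were scaled together for CPM, and HPC-1 on its own. RPKM is CPM per kilobase of exon. Library totals ran from 9658167 to 27786830; a count of 0 allows up to 3 counts, which is 0.114 to 0.290 CPM, and this covers counting error only. Libraries of a group differed beyond sampling noise, at a chi-square per degree of freedom of 16.1 to 234. Scripts were tested on simulated counts.

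Named are Trp53, Cdkn1a and Mdm2, every member past the threshold (up to 8 in each direction for MPP against HSC), and otherwise the 4 members with the lowest p; of further pathway genes, up to 3 in each direction, or 2 where none passed. The members and lists were chosen with earlier results of these data known. Per the labels, a replicate number marks a litter, and across populations a mouse, so the numbers pair the samples. Across genes, deviations from the group means of a litter's deleted and control libraries had r of -0.006 to 0.039 (HSC), 0.004 to 0.183 (MPP) and 0.084 to 0.524 (HPC-1). For MPP and HSC of 1 mouse r was 0.046 to 0.437 (deleted) and 0.209 to 0.388 (control). Alternatives were a litter or mouse block, no filter, DESeq2, limma voom, another prior count, each library left out, and, added after seeing the data, both litter 4 or both mouse 3 libraries left out.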

Additional observations from a re-analysis of the deposited data

Results flagged for a closer look

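Within a group of 4 libraries, a value was singled out where its gap to the nearest other, as a share of the range of the group, was above the 95% critical value of Dixon's test. Of 150 groups examined, for 25 members, 23 held such a value; chance gives about 1 group in 20. The 25 are the members picked by the naming rule given above, which leaves out some others mentioned, such as Mdm4 and Bax. Most of the 25 were chosen for low p-values and 8 of them for their litter difference in HPC-1, so the count cannot be read against that rate. In 2 of the 23 the other 3 libraries were at 0, where any value above 0 is singled out. Litter 4 of HPC-1 held 13 of the 23. These were Cdkn1a (137.5 CPM deleted, 101.7 CPM control), Btg2 (442.6 CPM deleted, 426.2 CPM control), Plk2 (55.7 CPM deleted, 64.5 CPM control), Plk3 (67.8 CPM deleted, 53.4 CPM control), Pmaip1 (24.2 CPM deleted, 18.6 CPM control), Bbc3 (33.3 CPM deleted), Ddit4 (35.2 CPM deleted) and Gdf15 (5.07 CPM deleted).

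In HSC, deleted mouse 1 stood apart from the other deleted mice in Trp53 (261.1 CPM), Perp (10.9 CPM) and Pmaip1 (0.584 CPM, where the others were at 0). Deleted mouse 2 did so in Ccng1 (170.6 CPM) and Zmat3 (3.40 CPM, the others at 0), deleted mouse 3 in Pidd1 (109.2 CPM) and deleted mouse 4 in Gdf15 (1.89 CPM). In MPP, deleted mouse 1 stood apart in Trp53 (242.5 CPM), and control mouse 2 in Plk3 (2.60 CPM, low) and Fas (3.13 CPM, high).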

How the results depend on the processing

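No member passed after deletion, in any population or averaged, under any alternative run. Over all genes, the deletion calls were 1 in HSC, 4 in MPP, 9 in HPC-1 and 13 averaged. DESeq2 gave 14, 95 and 68 in the 3 populations, no filter gave 20 in HPC-1, and leaving out both litter 4 mice gave 2 averaged. Leaving out 1 library gave 0 to 1, 2 to 22, 1 to 11 and, averaged, 4 to 26.

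With the litter or mouse as a block, which pairs the samples, all-gene calls were 0 in HSC and 60 in HPC-1, and those of MPP against HSC in controls were 2109, against 1205 without; 10 members were called there, against 6, and the block changed no other count of member calls. Cdkn1a reversed under the block in HPC-1 (-0.39) and for HPC-1 minus MPP (-0.24).

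Cdkn1a in HPC-1 also reversed with voom (-0.51) and without both litter 4 mice (-0.69), and ranged from -1.72 to 1.14 with 1 library left out; for HPC-1 minus MPP it was -0.39, -0.55 and -1.58 to 1.27, and for HPC-1 minus HSC -0.073 without litter 4 and -1.11 to 1.75. Trp53 for HPC-1 minus HSC was 0.0039 without litter 4 and -0.050 to 0.024 with 1 library left out. Other values near 0 that changed sign with 1 library left out were Mdm2 in HSC (-0.11 to 0.22), HPC-1 (-0.062 to 0.0016), MPP against HSC in controls (-0.20 to 0.024) and deleted mice (-0.11 to 0.21; -0.18 without mouse 3), MPP minus HSC (-0.026 to 0.31) and HPC-1 minus HSC (-0.22 to 0.10), and Cdkn1a in MPP (-0.38 to 0.072) and in MPP against HSC of deleted mice (-0.16 to 0.54).

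For MPP against HSC, leaving out 1 library gave 2 to 5 members in controls and 0 to 1 in deleted mice, where DESeq2 called 3 and voom 1, and all-gene calls of 54 to 208, or 846 with DESeq2, against 196. Interactions over all genes, 0 each, were 2, 11 and 7 with DESeq2, and 0 to 1 for HPC-1 minus HSC with 1 library left out. Of the further pathway genes, Cpt1c passed for HPC-1 minus HSC by DESeq2 (-6.92, adjusted p = 0.0118 by DESeq2). Its adjusted p by the edgeR interaction test was 0.603, and its count was 0 in every deleted HPC-1 library.

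For litter in HPC-1, 8 members became 0 without both litter 4 mice and 4 to 8 without 1 library (4 without deleted 4, 5 without control 1). All-gene calls, 401, were 602 without the filter, 912 with DESeq2, 43 without litter 4 and 130 to 464 without 1 library. In HSC they were 1 without the filter, 59 with DESeq2 and 0 to 1 without 1 library, against 0; in MPP 135 with DESeq2 and 0 to 2647 without 1 library, where members numbered 0 to 2 (2 without control 3). The causes were not tested.

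With 4 libraries a group, wide intervals for low genes such as Gdf15, Zmat3 and Pmaip1 leave differences above 2-fold unresolved. The p-values rest on the mice of 1 study. Those of MPP against HSC and of the interactions took the libraries of a mouse as independent, except with the mouse as a block.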
